A study of Homo sapiens with 4 samples.

Results

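Human embryonic stem cells given bone morphogenetic protein 4 (BMP4) in E8 medium for 6 days were compared with 3 cultures kept in the pluripotent state. The comparison rests on all 4 arrays of the series, 1 for the differentiated culture (Mesoderm) and 3 for the pluripotent cultures (E8, Nam and Y27632). A gene entered it when its probe was detected, with a detection p-value of at most 0.01, on Mesoderm or on each of the other 3. Of 20041 genes with a probe named by 1 symbol, 12083 were detected on at least 1 array and 11217 were compared. For each gene the value on Mesoderm was set against the mean of the 3 pluripotent arrays, with their range as the spread. On Mesoderm 14 of 16 compared BMP targets and 15 of 17 lateral plate and cardiac factors were higher. So were 8 of 10 endoderm genes and 12 of 12 amnion-associated genes. Over all compared genes 10.7% were higher and 10.0% lower. Most members of the last 3 of these lists, and 8 of the 16 BMP targets, were detected on Mesoderm alone or with 1 or 2 others. Of 38 compared pluripotency genes 24 were lower, SOX2 and NANOG among them, and NODAL and LEFTY1 were lower too.

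RNA was hybridised to Illumina BeadChips, arrays of probes on coded beads, and every group is a single culture. E8 is a defined medium for pluripotent stem cells, and the E8 group had that medium alone, with a 24 h label. The Nam group had 10 mM nicotinamide, a form of vitamin B3, and the Y27632 group had that small molecule at 10 µM, each added to E8 for 24 h. The Mesoderm group had E8 with BMP4 up to day 6 and served the study as its control for mesoderm differentiation. All cultures came from an embryonic stem cell line on matrigel, a matrix of basement membrane proteins. The characteristics name the line H9 and the growth protocol names H1. Checked against the arrays, the name in the characteristics did not match on 4 of 4, so no line is named below.

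There was no culture kept for 6 days without BMP4, so what BMP4 did and what the longer culture did cannot be told apart. The dose of BMP4 is not given in the sources used here. With 1 array against 3 an exact one-sided permutation test cannot give a p below 0.25, so no call below rests on a test. A moderated fit that treats the 3 pluripotent arrays as replicates was run as an alternative for the counts alone. A gene was called higher or lower when it differed by at least 2-fold (a log2 difference of at least 1) and by more than the range of the 3 pluripotent arrays. These 3 arrays are different treatments and not replicates, so their range is a guide to spread and not an error. Where no array on the dimmer side detected the probe, the fold is given as at least that size. It was taken against the mean, over those arrays, of the lowest detected value or the probe's own value, whichever was higher. Calls rest on the normalized values and not on this bound, so a called gene can have a bound below 2-fold. Probes differ in brightness, so levels are compared between arrays and never between genes.

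BMPs are secreted ligands of the TGF-beta family. They bind pairs of type I and type II receptors, which phosphorylate SMAD1, SMAD5 and SMAD9, and these enter the nucleus with SMAD4 to switch on targets such as the ID, MSX and DLX genes and, as feedback, inhibitors of the pathway. In human pluripotent cells BMP4 is used to drive exit from the pluripotent state towards primitive streak, mesoderm and extraembryonic cells such as amnion, with WNT and Nodal signals known to steer which of them form.

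The 4 arrays were alike in overall signal. Mean intensities lay between 528.5 and 620.5 and the arrays detected 16509 to 18051 of 47296 probes, with Mesoderm (580.9 and 17541 probes) inside both ranges. Over all probes the pluripotent arrays correlated with each other at r of 0.989 to 0.992 and with Mesoderm at 0.952 to 0.953, a description over probes that share an array. Among compared genes the median range of the 3 pluripotent arrays was 0.27 and the median size of the difference of Mesoderm was 0.47, both in log2 units.

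The label of the Mesoderm culture was set beside 5 markers. They were chosen with earlier results of these data known and all 5 entered through the Mesoderm array, so their values describe the culture and are no independent check of its label. HAND1, a transcription factor of lateral mesoderm and amnion on chromosome 5, stood at 4.81 on E8, 4.37 on Nam and 4.40 on Y27632, against 12.53 for Mesoderm. EOMES, a T-box factor of the primitive streak on chromosome 3, stood at 5.42, 4.76 and 4.87 on these 3 arrays and at 12.78 on Mesoderm. APLNR, the apelin receptor of early mesoderm on chromosome 11, stood at 4.71, 4.88 and 4.94 against 12.02. None of the 3 genes was detected on any pluripotent array, which put HAND1 at least 118-fold, EOMES at least 140-fold and APLNR at least 82.4-fold higher in the Mesoderm culture. ISL1, a factor of cardiac progenitors and amnion on chromosome 5, was detected on Nam at 5.68, was not detected on E8 (4.74) or Y27632 (4.89), and stood at 11.71 on Mesoderm, a difference of 6.61. MSX1, a homeobox target of BMP on chromosome 4, stood at 6.52, 6.28 and 5.65, the last not detected, against 11.96, a difference of 5.81. In all 5 the Mesoderm value lay above every pluripotent value, and each was read from 1 probe.

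**Figure D1:**
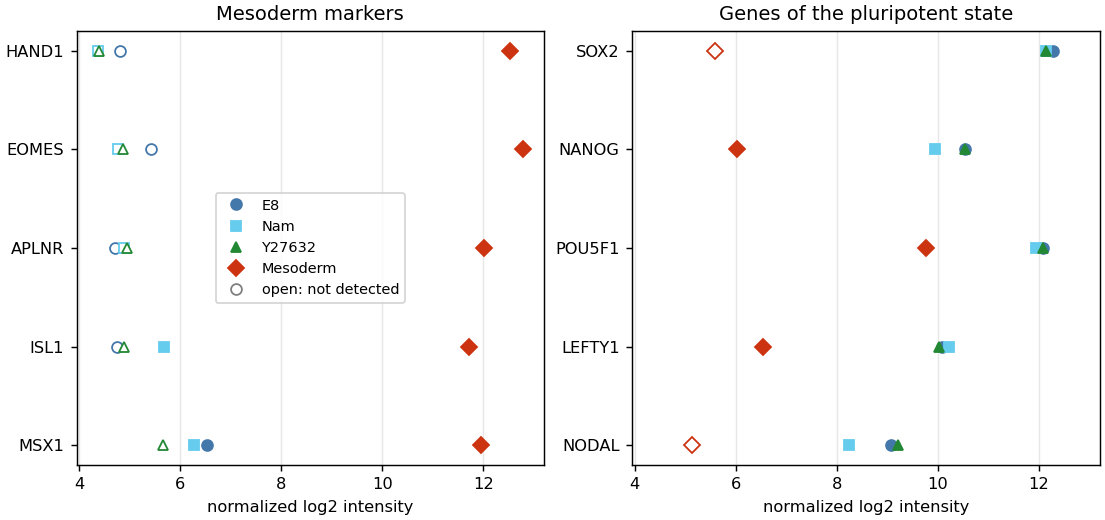
Normalized log2 intensity of 5 mesoderm markers (left) and 5 genes of the pluripotent state (right) on the 4 arrays, 1 point per array, open where the probe was not detected. The Mesoderm array lies between 11.71 and 12.78 for the markers, above all other arrays, and below all other arrays for the genes on the right.

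Of the 11217 compared genes, 1199 (10.7%) were higher and 1126 (10.0%) were lower in the Mesoderm culture, with a median difference of -0.02 over all compared genes. The higher genes reached further: by normalized values 75 higher and 16 lower genes reached 16-fold, and 13 higher and 3 lower genes reached 64-fold. Of the higher genes, 648 were detected on all 4 arrays, 156 on Mesoderm and 1 or 2 of the others, and 395 on Mesoderm alone. Of the lower genes, 754 were detected on all 4 and 372 on all 3 pluripotent arrays but not on Mesoderm. With the undetected side set at its bound, 1005 higher and 973 lower genes still reached 2-fold. At that bound 51 higher and 14 lower genes reached 16-fold, and 10 higher and 1 lower reached 64-fold. For 2102 of the 2325 called genes the range of the 3 pluripotent arrays was less than 0.5 times the difference.

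**Figure D2:**
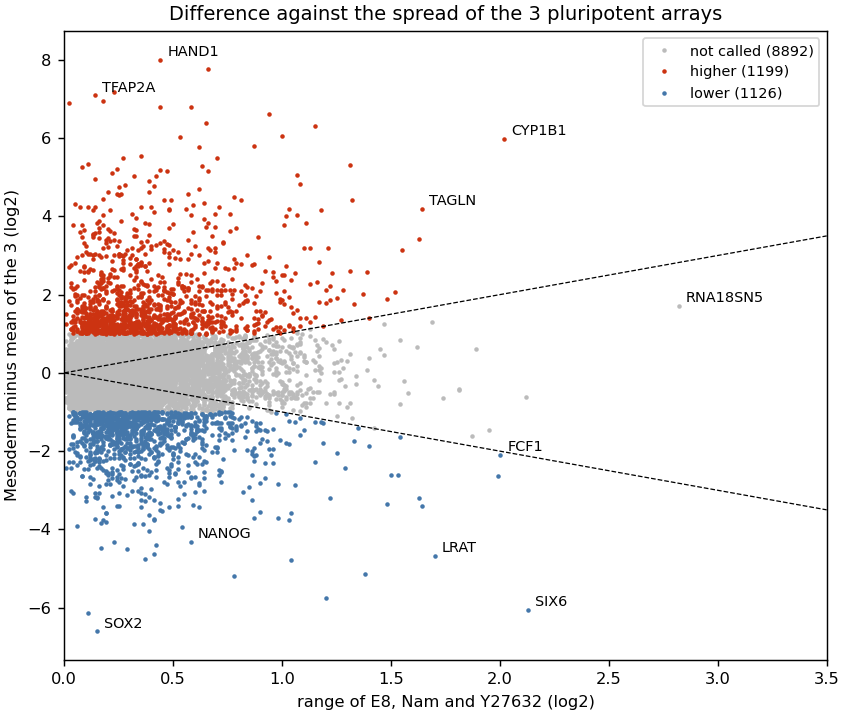
Difference of Mesoderm from the mean of the 3 pluripotent arrays (log2, vertical) against the range of those 3 arrays (log2, horizontal), 1 point per compared gene. Dashed lines mark a difference equal to the range. Most called genes lie far outside them, CYP1B1 and SIX6 combine a large difference with a range of 2.02 and 2.13, and RNA18SN5 lies inside with a range of 2.82.

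The first question was whether the BMP pathway itself was altered in the culture that received BMP4. Its members are described by role, and each list is set beside the shares of all compared genes, 10.7% higher and 10.0% lower. Those shares are no fair yardstick for members that entered through the Mesoderm array. Of all genes detected on Mesoderm alone 395 of 606 were higher, and of those detected on Mesoderm and 1 or 2 others 156 of 608. In both sets 0 were lower. The same holds in reverse for genes that Mesoderm did not detect. Of 519 genes detected on all 3 pluripotent arrays and not on Mesoderm, 372 were lower and 0 higher. Of 15 listed BMP ligands 14 had a probe and 4 were compared, 3 of them because Mesoderm detected them. BMP2, a ligand of heart and amnion development, stood at 5.67 on E8, 5.36 on Nam (not detected), 5.89 on Y27632, against 11.69 for Mesoderm, a difference of 6.04. BMP4 itself, not detected at 4.36, 4.60 and 4.53, was detected on Mesoderm at 6.95, which is at least 2.45-fold higher. BMP5 was at least 3.11-fold higher. BMP7 stood at 8.75, 8.39 and 8.97 against 7.86, a difference of -0.85 that was not called. The added protein is not seen by the array, so the BMP4 and BMP2 values concern transcripts made by the cells.

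Receptors and SMADs moved little. Of 15 listed, 14 had a probe and 9 were compared, all 9 detected on each pluripotent array. ACVR2A, a type II receptor, stood at 8.0, 7.82 and 7.95 against 9.03, a difference of 1.11 by its brighter probe. Its 2 detected probes averaged 0.88 with an SD of 0.33, and by that mean it was not called. RGMA, a membrane co-receptor, stood at 9.67, 9.74 and 9.48 against 7.27, a difference of -2.36. These were the 2 calls in the list. The type I receptor ACVR1 differed by 0.99, just under 2-fold, the type II receptors ACVR2B by -0.06 and BMPR2 by -0.39, the shared SMAD4 by 0.14 and SMAD5 by 0.02. SMAD9 differed by -0.43 by its brighter probe, but its 2 detected probes averaged 1.29 with an SD of 2.44, so they gave opposite directions and its change is unsettled. The list median was 0.02, against -0.02 over all compared genes.

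Inhibitors of the pathway were split between those that were well above the pluripotent arrays and those that were not. Of 21 listed, 20 had a probe and 14 were compared, 4 of them through the Mesoderm array, with 7 higher and 1 lower. SMAD6, an inhibitory SMAD inside the cell, stood at 8.03, 7.74 and 8.19 against 11.07, a difference of 3.08. SMAD7, the other inhibitory SMAD, stood at 9.55, 9.42 and 9.70 against 9.09, a difference of -0.46. The pair therefore differed in direction, with the Mesoderm value above every pluripotent value for SMAD6 and below every one for SMAD7. BAMBI, a receptor without a kinase that blocks signalling, stood at 10.61, 10.49 and 10.83 against 13.41, a difference of 2.77. The secreted follistatin FST differed by 2.68 and FSTL1 by 1.71. BMPER, a secreted modulator, was at least 11.1-fold higher, and NOG (noggin), which binds BMPs, was detected on Mesoderm alone with a bound of 1.14-fold. NBL1, another secreted antagonist, was lower by a difference of -1.66, SMURF1, a ubiquitin ligase, stood at 0.11, and CHRD (chordin) was not detected on any array.

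Established BMP targets were higher across most of the list. Of 19 genes, all with a probe, 16 were compared, 8 of them through the Mesoderm array, with 14 higher and 0 lower, and the median over all 19 was 2.15, against -0.03 over all genes with a probe. The ID genes encode dominant inhibitors of bHLH differentiation factors. ID3 stood at 9.48 on E8, 9.33 on Nam and 9.70 on Y27632, against 12.54 for Mesoderm, a difference of 3.03. ID1 stood at 9.44, 9.01 and 9.51 against 11.47, a difference of 2.15, and its 2 probes averaged 1.60 with an SD of 0.78. ID2 differed by 1.05, and ID4, not detected on the pluripotent arrays, was at least 9.17-fold higher. The ID genes were thus all above the 3 arrays, from 2.07-fold for ID2 to at least 9.17-fold for ID4. TFAP2A, an AP-2 factor of surface ectoderm and amnion, was not detected at 4.46, 4.61 and 4.56 and stood at 11.63, which is at least 63.2-fold higher by its brighter probe, while its 2 probes averaged a difference of 6.21 with an SD of 1.25. The homeobox genes MSX2 and DLX5 were at least 9.64-fold and at least 3.81-fold higher, and the T-box gene TBX3 at least 7.35-fold. The Notch and BMP target HEY1 stood at 7.73, 6.58 and 7.83 against 9.29. The targets GATA2, TBX2 and ATOH8 were not detected on any array.

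**Figure D3:**
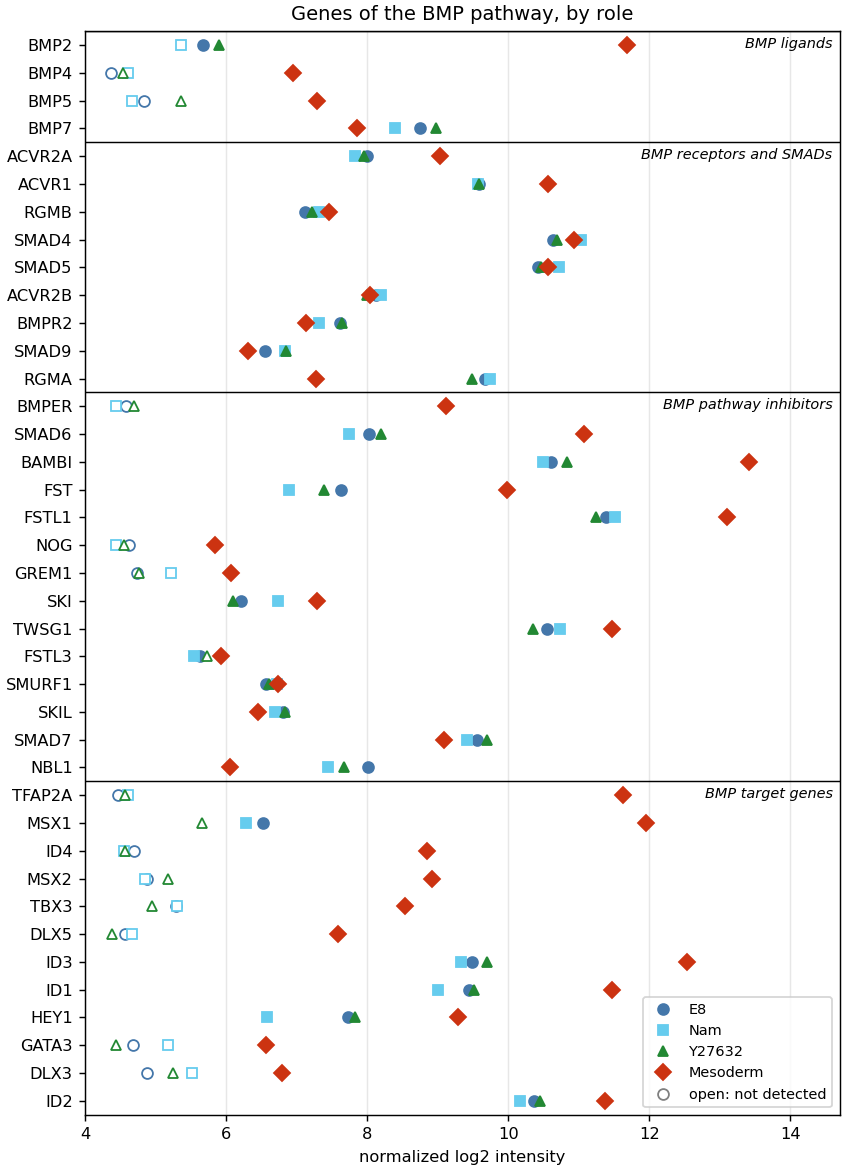
Normalized log2 intensity of the compared genes of the BMP pathway on the 4 arrays, grouped by role, open where a probe was not detected. Levels can be compared between arrays for 1 gene, not between genes. Mesoderm lies close to the other arrays for most receptors and SMADs and to their right for most targets and for SMAD6, BAMBI and FST, but not for SMAD7, NBL1 or the probe of SMAD9 shown, whose other probe differed from it.

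The start region of SMAD6 is shown because it holds the palindrome GTCTAGAC, the letters to which SMAD proteins bind in vitro. The sequence is the 150 bases before the RefSeq start of the gene on build GRCh38.p14, chr15:66702086-66702235, plus strand, 5′ to 3′, with the palindrome in capitals.
SMAD6: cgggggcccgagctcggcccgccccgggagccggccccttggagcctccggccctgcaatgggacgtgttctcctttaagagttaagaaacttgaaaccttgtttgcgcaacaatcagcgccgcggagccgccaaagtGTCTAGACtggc
The palindrome begins 12 bases before the start. On either strand it is found in 0.202% of 35116 RefSeq promoters of 300 bases (250 before the start and 50 after it), and of the 14 BMP target genes in that table SMAD6 alone holds it. The match describes letters in a window, and binding was not measured.

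The next question was how far the culture had moved towards mesoderm. Of 17 listed primitive streak factors 16 had a probe and 9 were compared, 7 of them through the Mesoderm array, with 6 higher and 1 lower. Besides EOMES, LHX1, a LIM homeobox factor, was at least 18.0-fold higher, and SP5, a target of WNT, at least 10.9-fold. MESP1, which marks the earliest cardiac mesoderm, stood at 5.67, 5.30 (not detected) and 6.07 against 10.18, a difference of 4.49. TBXT (brachyury), the classical marker of the streak, was not detected at 4.57, 4.66 and 5.68 and stood at 8.80, at least 8.89-fold higher by its brighter probe, with an SD of 1.75 between its 2 probes. MIXL1 was at least 2.77-fold higher. Some streak factors were therefore detected at day 6, and no earlier day with BMP4 was measured. MSGN1, TBX6 and MESP2, which act in presomitic mesoderm, and CDX1, CDX2, EVX1 and GSC were below detection on all 4 arrays. CDX4, of the posterior streak, was lower, with 6.53, 6.77 and 6.27 against an undetected 4.62, at least 1.86-fold. It lost the call without background correction.

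Of 29 lateral plate and cardiac factors 28 had a probe and 17 were compared, 14 of them through the Mesoderm array, with 15 higher and 0 lower, and the median over all 28 was 1.54. IRX3, an Iroquois homeodomain factor, stood at 5.40, 4.96 and 5.11, not detected on any of them, against 11.95, at least 78.7-fold higher. MEIS2, a homeodomain cofactor, was at least 23.0-fold higher by its brighter probe, with an SD of 2.89 between its 2 probes. TWIST1, a bHLH factor of mesenchyme, was at least 6.02-fold higher, and the zinc finger factors GATA4 and GATA6 at least 4.99-fold and at least 1.86-fold. HAND2, FOXF1, FOXF2 and TCF21, of heart, gut and body cavity mesoderm, were called as well, at least 2.69-fold, 1.39-fold, 2.98-fold and 1.88-fold higher. At their bounds GATA6, FOXF1 and TCF21 fell short of 2-fold. Factors of the later heart field NKX2-5, TBX5, TBX20 and MEF2C, the epicardial genes WT1 and TBX18, and the limb mesenchyme gene PRRX1 were not detected on any array. GATA5 (0.54) and PRRX2 (-0.48) were measured on all 4 arrays without a call.

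Few genes of other mesoderm types were detected. In paraxial and intermediate mesoderm, 18 genes had a probe and 4 were compared, 3 of them through the Mesoderm array. LHX1, RIPPLY1 (at least 1.24-fold) and RIPPLY2 (at least 1.42-fold) were higher and UNCX stood at -0.46. The somite genes MEOX1, MEOX2, PAX1, PAX3, MYF5 and MYOD1 and the kidney gene PAX8 were not detected on any array. In endothelium and blood, 23 genes had a probe and 8 were compared, 6 of them through the Mesoderm array, with 5 higher. VWF, the clotting factor carrier of endothelium, stood at 5.88, 5.40 (not detected) and 6.09 against 9.52, and LMO2, a cofactor of blood and vessel formation, at 6.08, 6.68 and 6.01 against 9.45. The other calls of this list were HBE1, at least 2.22-fold higher, SOX18 (a log2 difference of 1.17) and HBG2 (1.06). HBG2 lost the call without Nam (0.95) or without Y27632 (0.92). The endothelial adhesion genes CDH5, PECAM1, CLDN5 and EMCN and the blood factors TAL1, RUNX1, GATA1 and SPI1 were not detected on any array. The mean log2 level of the 23 probes was 5.02 to 5.09 on the pluripotent arrays and 5.63 on Mesoderm. Of 29 HOX genes with a probe, 7 were detected on some array and 6 were compared, all 6 through the Mesoderm array. HOXB2 (at least 5.05-fold) and HOXB5 (at least 1.97-fold) were called higher.

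Markers of cell types other than mesoderm were higher in the same culture, and their part in the results above was not tested. Endoderm genes numbered 14 with a probe, of which 10 were compared, 8 through the Mesoderm array, with 8 higher. SOX17, the factor of definitive endoderm, was not detected at 4.69, 4.44 and 4.42 and stood at 10.00, at least 20.4-fold higher. FOXA2 stood at 4.94, 4.97 and 5.26, also not detected, against 10.09, at least 21.7-fold higher. CER1, a secreted inhibitor of Nodal and BMP, stood at 4.94, 4.81 and 5.99 against 9.41, with its 2 probes within an SD of 0.14. The apolipoprotein genes APOA1 and APOA2 were detected on Mesoderm alone, while AFP, TTR and FOXA1 were not detected on any array and HHEX stood at -0.69. The mean log2 level of the 14 endoderm probes was 5.16 to 5.38 on the pluripotent arrays and 7.14 on Mesoderm.

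Amnion-associated genes were all higher where they could be compared: 12 of 12, of 16 with a probe, 9 of the 12 having entered through the Mesoderm array. HAND1, ISL1, TFAP2A, DLX5, BAMBI, BMP4 and IGFBP3 belong to this list too, so it is not separate from those above. GABRP, a subunit of a GABA receptor, stood at 7.43, 6.91 and 7.74 against 9.34, and VTCN1, an immune checkpoint protein of amnion and trophoblast, was at least 2.96-fold higher. The mean log2 level of the 16 probes was 5.5 to 5.59 on the pluripotent arrays and 8.56 on Mesoderm. POSTN, TFAP2B, MUC16 and KRT24 were not detected on any array. Trophoblast genes moved less, with mean levels of 5.17 to 5.27 against 5.66. Of 19 probed genes 6 were compared, 4 of them through the Mesoderm array, with 4 higher and 1 lower. SLC40A1, an iron exporter, was at least 3.03-fold higher and GATA3 at least 1.88-fold. TFAP2C, an AP-2 factor of trophoblast and of pluripotent cells, stood at 10.34, 9.89 and 10.27 against 8.72, a difference of -1.45, and the placental genes CDX2, CGA, CGB5, ELF5, INSL4 and PSG1 stayed below detection on every array. In this bulk RNA fewer cells of a type and less RNA per cell cannot be told apart, and neither can a mixture of types and a single type that expresses genes of several.

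The surface ectoderm and neural crest list gave 6 higher and 1 lower among 12 compared of 16 with a probe. Of the 12, 6 entered through the Mesoderm array. SNAI2, a repressor that acts in neural crest and mesoderm, was at least 10.5-fold higher. GRHL3, of surface ectoderm, was at least 2.07-fold higher, the keratins KRT5 and KRT14 were not detected on any array, and SOX9 stood at -0.08. FOXD3, which acts in crest and in pluripotent cells, stood at 7.05, 7.12 and 7.12 against an undetected 4.46, at least 2.77-fold lower. SOX10 passed the call narrowly, with a difference of 1.06 beside a range of 1.05, and lost it without E8 (0.85) or without Y27632 (0.96).

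**Figure D4:**
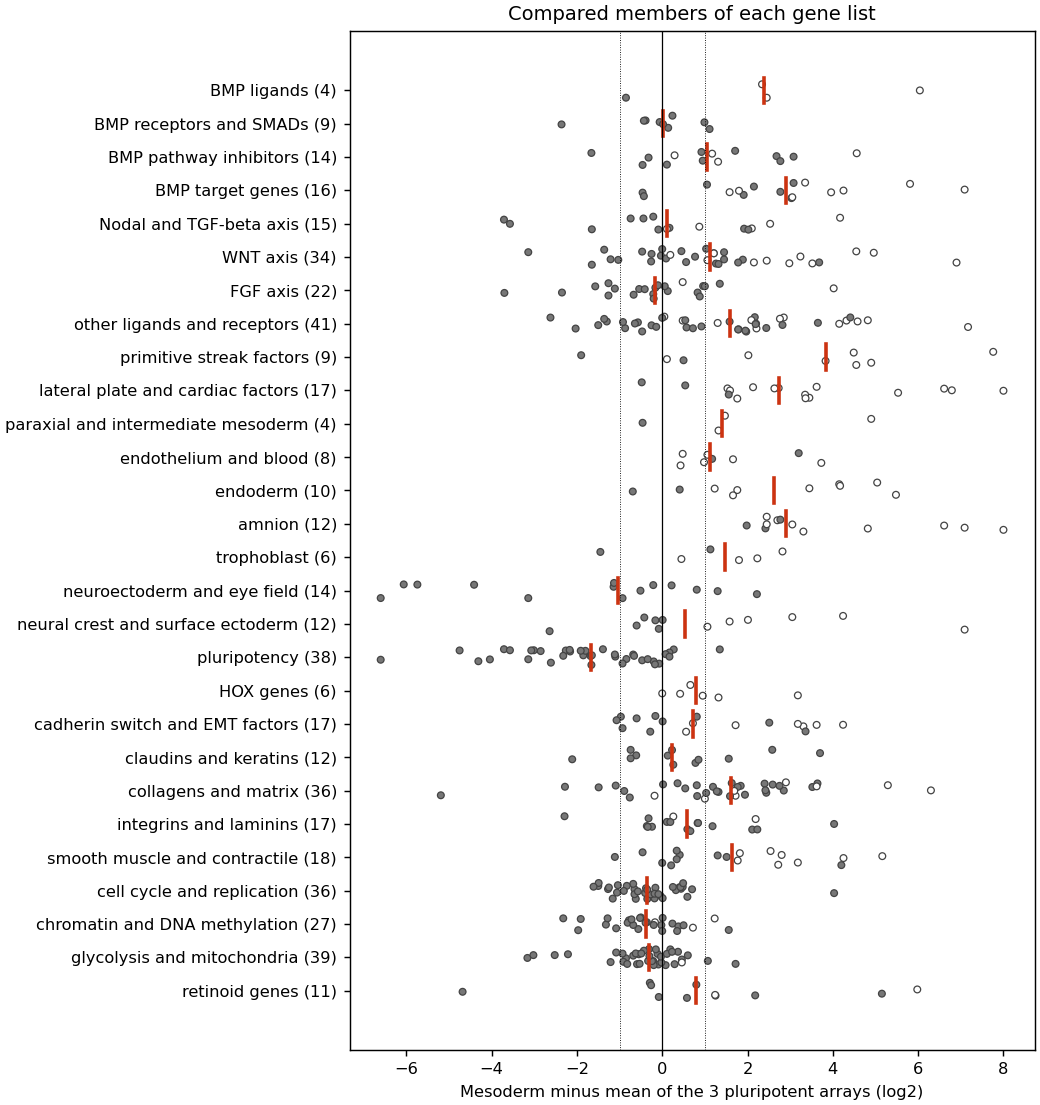
Difference of Mesoderm from the mean of the 3 pluripotent arrays (log2) for the compared members of 28 gene lists, with the number compared in brackets. Red bars are list medians, filled points are genes detected on all 3 pluripotent arrays, and open points are genes that entered through the Mesoderm array. Lateral plate, endoderm and amnion members lie mostly above 1 and are mostly open, and pluripotency members lie mostly below 0 and are filled.

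On the other side of the comparison stood the genes of the pluripotent state. Of 46 listed, 43 had a probe and 38 were compared, each detected on all 3 pluripotent arrays. Of the 38, 1 was higher and 24 were lower, with a median of -1.67, and the median over all 43 was -1.39. SOX2, the partner of OCT4, stood at 12.27 (E8), 12.13 (Nam) and 12.13 (Y27632) against an undetected 5.58 on Mesoderm, at least 93.7-fold lower. NANOG, a homeobox factor, stood at 10.53, 9.95 and 10.53 against 6.03, a difference of -4.31 with 2 probes within an SD of 0.04. POU5F1, the gene of OCT4, stood at 12.08, 11.94 and 12.08 against 9.77, a difference of -2.26. The core factors thus did not differ by equal amounts, with POU5F1 retained at a detected level and SOX2 below detection. UTF1, a chromatin factor of stem cells, was at least 19.7-fold lower, the nuclear receptor NR5A2 differed by -4.04 (an SD of 1.58 over 3 probes that averaged -3.01), the ubiquitin hydrolase USP44 by -3.07 and the zinc finger gene ZSCAN10 by -2.85. The stem cell genes DPPA4 and L1TD1 differed by -2.16 and -2.17, and TERT, the catalytic subunit of telomerase, stood at 6.49, 6.25 and 6.11 against an undetected 4.43. The naive-state gene KLF2 was the exception, higher by 1.35.

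Members of the same list that were not called show where the state had not changed by 2-fold. LIN28A, which blocks let-7 microRNAs, stood at 13.32, 13.35 and 13.31 against 12.49, a difference of -0.84, and its paralogue LIN28B differed by 0.27. SALL4, a zinc finger partner of OCT4, differed by -0.07, SALL1 by 0.08 and TRIM71 by -0.20. The surface proteins PODXL and CD24 differed by -0.68 and -0.93, and CD9 by -0.66. The values of these genes, apart from SALL1 and SALL4, were chosen for display after they had been seen.

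The start region of NANOG is shown because it carries a paired site, a SOX-type CATTGT and an octamer-type ATGCAAA with 1 base between them, the arrangement known for joint binding of SOX2 and OCT4, both of whose genes were lower on Mesoderm. The 150 bases before its RefSeq start lie at chr12:7789252-7789401 of GRCh38.p14, plus strand, with the pair, read on the minus strand, in capitals.
NANOG: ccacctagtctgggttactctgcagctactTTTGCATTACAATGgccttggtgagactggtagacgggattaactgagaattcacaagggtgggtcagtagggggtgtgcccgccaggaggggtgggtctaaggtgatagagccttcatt
The pair spans 120 to 107 bases before the start. Among the 35116 RefSeq promoters 3 hold it on either strand (0.00854%), against 4.46% with the octamer-type letters alone and 10.8% with the SOX-type letters alone. Of the 31 pluripotency genes with a promoter there, NANOG alone holds the pair. Occupancy of the site was not measured.

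Of 26 neuroectoderm and eye field genes with a probe 14 were compared, all through the pluripotent arrays. Of these, 7 were lower, 2 higher and 5 not called, with a median of -1.03. The median over all 26 was -0.33, against -0.03 over all genes with a probe. SIX6, an eye field factor, stood at 11.25 on E8, 9.36 on Nam and 11.49 on Y27632 against an undetected 4.64, at least 33.7-fold lower. SOX21 stood at 10.77, 9.57 and 10.49 against an undetected 4.54, at least 25.2-fold lower, and SOX3 at 10.65, 10.23 and 10.36 against 6.00. In SIX6 and SOX21 the Nam array lay well below the other 2 pluripotent arrays, and Mesoderm below all 3. SIX3 and ZIC2 were lower by differences of -1.14 and -1.13. OTX2, a factor of the anterior embryo, went the other way, with 8.19, 6.97 and 7.81 against 9.87, a difference of 2.22. The neural genes SOX1, LHX2, RAX, HES5 and POU3F2 were not detected on any array, and NES (nestin) stood at 0.22.

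Further signalling axes changed in part. In the Nodal and TGF-beta axis, 15 of 23 probed genes were compared, 5 of them through the Mesoderm array, with 5 higher and 3 lower. NODAL, a ligand that maintains pluripotency and induces the streak, stood at 9.07, 8.24 and 9.22 against an undetected 5.13, at least 9.30-fold lower. LEFTY1, its feedback inhibitor, stood at 10.08, 10.21 and 10.02 against 6.53, a difference of -3.57, while LEFTY2 stood at 6.63, 6.87 and 6.32 against 6.78, a difference of 0.17. The neighbouring LEFTY genes thus parted, with Mesoderm outside the pluripotent values for LEFTY1 and inside them for LEFTY2. CFC1, a Nodal co-receptor, was at least 2.80-fold higher, TGFB3 at least 2.16-fold and the receptor TGFBR3 by 1.92, while the receptor TGFBR2 differed by -0.74 and SMAD2 and SMAD3 by -0.21 and -0.09. GDF3 was called lower at -1.65 beside a range of 1.54, as Nam stood at 8.08 and E8 and Y27632 at 9.63 and 9.59, and it lost the call without E8 (-1.39) or without Y27632 (-1.41).

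WNT genes were higher in 19 and lower in 5 of 34 compared, of 52 with a probe, 12 having entered through the Mesoderm array. WLS, the transporter that WNT proteins need for secretion, stood at 5.53, 5.54 and 5.51, not detected, against 12.43, at least 110-fold higher, and its 5 probes averaged 5.68 with an SD of 0.76. The ligands WNT3A (at least 4.82-fold), WNT6 (at least 2.82-fold), WNT3 (2.98), WNT5B (1.45) and WNT5A (1.03) were higher, the values in brackets being log2 differences unless given as folds. The secreted inhibitors DKK4 (at least 13.4-fold) and DKK1 (at least 6.31-fold) and the nuclear effector LEF1 (3.68) were higher too. AXIN2, a general readout of WNT signalling, stood at 10.52, 10.42 and 10.28 against 9.05, a difference of -1.36. Readouts of the pathway therefore did not share a direction, with SP5, LEF1 and DKK1 above the pluripotent arrays and AXIN2 below them. SFRP2, a secreted WNT antagonist, stood at 12.65, 12.73 and 12.87 against 9.61, and its relative SFRP1 differed by -0.26. Among receptors, FZD1, FZD2, FZD8 and ROR2 were higher, FZD3, FZD5 and ROR1 were lower (ROR1, at -1.03, not called without E8), and LRP6 stood at 6.20, 5.89 and 6.58 against 6.22.

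FGF genes were lower in 6 and higher in 2 of 22 compared, with a median of -0.18, beside 10.0% lower and 10.7% higher over all compared genes. FGF19 stood at 8.70, 8.08 and 8.94 against an undetected 4.87, at least 7.70-fold lower. FGFR4, its receptor, stood at 8.56, 8.90 and 8.73 against 6.38, a difference of -2.35. FGF2, the growth factor of E8 medium, was lower as a transcript by -1.11. FGF17, a ligand of the gastrulating embryo, went up to 9.07 from undetected values of 4.68, 4.77 and 5.70, at least 10.7-fold. Feedback genes of the pathway showed no common shift, with ETV4 at -1.26, ETV5 at 0.06, SPRY4 at -0.10, SPRY2 at 0.13 and DUSP6, at 12.23, 12.61 and 12.63 against 13.49, just short of the call.

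Among other ligands and receptors, 41 of 52 probed genes were compared, 13 of them through the Mesoderm array, with 21 higher and 5 lower. PDGFRA, a receptor of early mesoderm, was not detected at 5.5, 5.26 and 5.26 and stood at 9.92, at least 19.3-fold higher, and PDGFRB differed by 3.65. Of the PDGF ligands, PDGFA was lower by -1.50, PDGFB was higher by 1.79 and PDGFC differed by 0.57 without a call. CXCR4, a chemokine receptor of endoderm and mesoderm, was at least 8.66-fold higher and its ligand CXCL12 stood at 9.53, 9.74 and 9.59 against 7.0, a difference of -2.62. KIT was lower by -1.30 and its ligand KITLG higher by 2.17. APLN, the ligand of APLNR, differed by 2.85. Receptor and ligand thus differed in opposite directions for CXCR4 and KIT and in the same direction for APLNR, while the PDGF ligands went both ways. KDR, a VEGF receptor of vascular progenitors, stood at 7.74, 7.90 and 7.54 against 9.30. The angiopoietin ANGPT2 was at least 8.94-fold higher, and the insulin-like growth factor binding proteins IGFBP3 and IGFBP7 differed by 4.82 and 4.41.

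Genes of the matrix were higher over much of the list, 24 of 36 compared with 4 lower, and 28 of the 36 were detected on all 3 pluripotent arrays. HAPLN1, which ties hyaluronan to proteoglycans, stood at 6.32, 5.16 (not detected) and 6.04 against 12.14. LOX, which cross-links collagen, was at least 20.5-fold higher. The fibrillar collagens COL5A1 (3.64), COL5A2 (2.40), COL1A2 (2.59) and COL1A1 (1.84) and the proteoglycan BGN (2.85) were higher in log2 difference, and LUM and COL3A1, undetected on the pluripotent arrays, were at least 6.91-fold and at least 4.62-fold higher. THBS2, a matricellular thrombospondin, stood at 10.03, 9.25 and 9.92 against an undetected 4.55, at least 17.2-fold lower, while its paralogue THBS1 was higher by 2.75. Genes of the basement membrane varied, with NID2 higher by 2.19 and LAMB2 by 1.18, and COL4A1 at 0.54, COL4A2 at 0.36, COL18A1 at 0.02 and LAMC1 at 0.19 without a call. Among integrins, ITGA5, the chain of the fibronectin receptor, stood at 6.93, 6.39 and 6.98 against 10.80, a difference of 4.03, and ITGA6, a laminin receptor chain, at 8.17, 8.16 and 8.16 against 5.88, a difference of -2.29.

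Of the cadherins and factors of epithelial-mesenchymal transition 17 of 26 probed genes were compared, 7 of them through the Mesoderm array, with 7 higher, 1 lower and 9 not called. VIM (vimentin) stood at 11.11, 10.93 and 11.00 against 13.53, and CDH11, a mesenchymal cadherin, at 6.95, 7.19 and 7.09 against 10.44. ZEB2, a repressor of epithelial genes, was at least 4.53-fold higher. CDH1 (E-cadherin) stood at 12.48, 12.43 and 12.26 against 12.23, EPCAM at 12.74, 12.99 and 12.87 against 12.87, and CDH3 differed by -0.28. CDH2 (N-cadherin) differed by 0.81 and was not called. The epithelial regulators OVOL2, ESRP1 and GRHL2 differed by -1.07, -0.97 and -0.60, of which OVOL2 was called. Of 12 compared claudins and keratins 3 were higher, 1 lower and 8 not called, with a median of 0.24. Shares over all compared genes were 10.7% higher and 10.0% lower. KRT19 was higher by 2.58, KRT8 by 1.56 and CLDN11 by 3.70, and CLDN10 was lower by -2.11.

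Contractile genes were higher in 11 and lower in 1 of 18 compared, of 27 with a probe, 8 having entered through the Mesoderm array. ACTC1, the actin of the heart, stood at 6.01, 6.33 and 5.66, the last not detected, against 11.16, a difference of 5.16. ACTA2, smooth muscle actin, was at least 12-fold higher, and TAGLN stood at 9.30, 7.67 and 7.96 against 12.51, so that E8 lay above the other 2 pluripotent arrays and Mesoderm above all 3. The atrial and embryonic myosin light chains MYL7 and MYL4 were at least 3.53-fold and at least 4.15-fold higher. The myosin heavy chains MYH6, MYH7 and MYH11 and desmin (DES) were not detected on any array, and the nonmuscle chain MYH9 differed by 0.21.

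The start region of ACTC1 is shown because it holds a CArG box, the site type bound by serum response factor, which is known to drive actin genes, together with TATAAA. The 150 bases before a RefSeq start lie at chr15:34795550-34795699 of GRCh38.p14, minus strand, and both motifs are in capitals.
ACTC1: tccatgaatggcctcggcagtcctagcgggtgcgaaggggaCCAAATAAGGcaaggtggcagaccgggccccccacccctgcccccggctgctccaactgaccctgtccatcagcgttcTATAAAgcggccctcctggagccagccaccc
The CArG box begins 109 bases and TATAAA 31 bases before the start. A CArG box was found in 6 of the 20 contractile genes with a promoter in the table (ACTA1, ACTC1, ACTG2, CNN2, MYL7 and TPM4) and in 1.29% of all 35116 promoters, and TATAAA in 11.5% of all. The contractile list was counted by gene and the whole by promoter, so these shares are not in like units. Of these 6 genes ACTC1, ACTG2 and MYL7 were called higher, and ACTA1 (0.41), CNN2 (0.00) and TPM4 (0.34) were not called.

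Cell cycle genes differed in a few members, chiefly those of replication licensing. Of 36 compared, each detected on all 3 pluripotent arrays, 8 were lower and 1 higher, with a median of -0.35. The shares over all compared genes were 10.0% lower and 10.7% higher. CDKN1A, the cyclin-dependent kinase inhibitor p21, stood at 9.07, 8.10 and 9.17 against 12.81, a difference of 4.03. The 8 lower genes were MYCN, a driver of growth (-1.61), the licensing genes CDC6 (at least 1.40-fold), CDT1 (-1.27), MCM2 (-1.16), MCM3 (-1.04), MCM4 (-1.06) and MCM5 (-1.49), and E2F2, a factor of S phase entry (-1.25). Mitotic genes were not among them: BUB1 differed by 0.70, TOP2A by 0.59, CDK1 by 0.48, CCNB1 by -0.04, PLK1 by -0.35 and MKI67 by -0.27.

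Some chromatin and metabolic genes were lower, beside shares of 10.7% higher and 10.0% lower over all compared genes. DNMT3B, a de novo DNA methyltransferase of pluripotent cells, stood at 13.54, 13.41 and 13.55 against 11.18. DNMT3A stood at 7.05, 6.58 and 6.45 against an undetected 5.38, at least 2.1-fold lower. It lost the call under 4 alternatives, the authors' normalized values among them. The maintenance enzyme DNMT1 differed by -0.36. The Polycomb genes JARID2, PHC1 and CBX2 were lower by -1.97, -1.91 and -1.28, and EZH2, EED and SUZ12 differed by -0.56, 0.38 and -0.02. In all 6 of 27 compared chromatin genes were lower and 2 higher. Of 39 compared genes of glycolysis and mitochondria 31 were not called, 2 were higher and 6 lower, not far from the shares over all genes. GLDC, which cleaves glycine, stood at 12.14, 12.14 and 12.11 against 9.11, the creatine kinase CKMT1A, whose copy CKMT1B is nearly identical, at 10.24, 10.22 and 10.32 against 7.10, and hexokinase HK2 at 10.62, 10.35 and 10.65 against 8.02. PPARGC1A, a coactivator of mitochondrial biogenesis, was higher by 1.72, and GAPDH, LDHA and ENO1 differed by -0.20, -0.24 and 0.08.

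**Figure D5:**
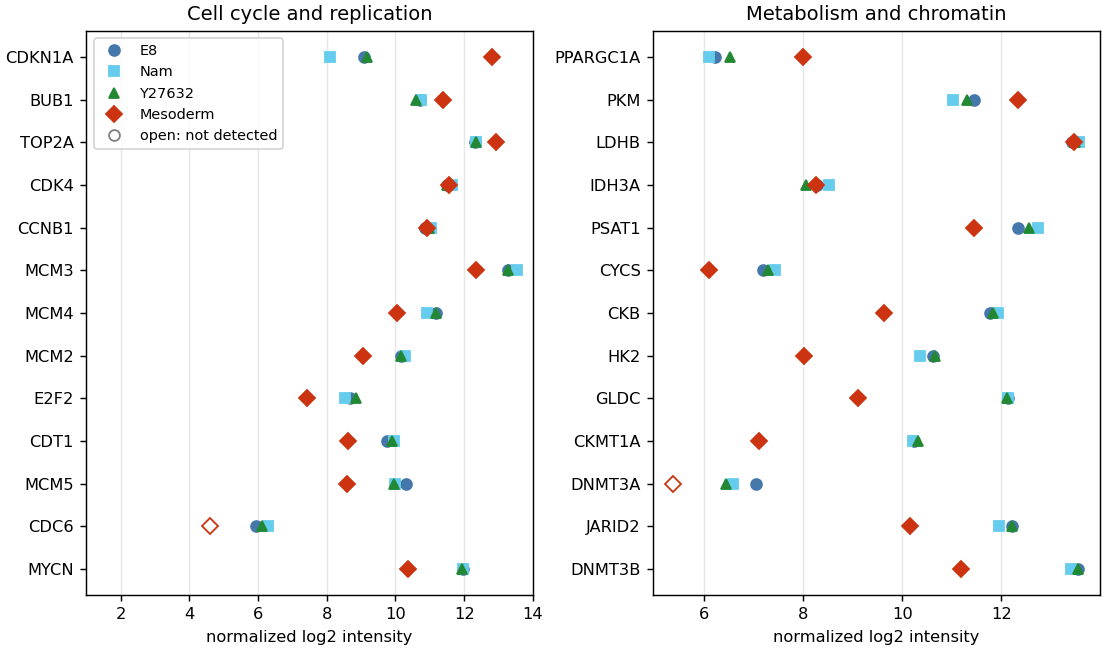
Normalized log2 intensity of cell cycle genes (left) and of metabolic and chromatin genes (right) on the 4 arrays, open where the probe was not detected. CDKN1A lies to the right on Mesoderm and the MCM genes to the left, CDK4 and CCNB1 lie among the other arrays, and GLDC and CKMT1A differ by -3.02 and -3.16.

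Retinoid genes were the last list. CYP26A1, which degrades retinoic acid, stood at 7.69, 7.72 and 7.25 against 12.71, a difference of 5.15, with an SD of 1.61 over 3 probes that averaged 4.28. CRABP2, which carries retinoic acid to the nucleus, was higher by 2.18, and ALDH1A3, which makes it, by 1.25. LRAT, which stores retinol as esters, stood at 10.08, 8.63 and 10.33 against an undetected 5.0, at least 16.6-fold lower. In all 5 of 11 compared retinoid genes were higher and 1 lower, beside 10.7% higher and 10.0% lower over all compared genes. Of the 11, 2 entered through the Mesoderm array. The retinoic acid receptors RARB and RARG were not detected on any array.

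Some of the largest differences lay outside these lists. ALPK2, an alpha-kinase, was not detected at 4.52, 4.45 and 4.63 and stood at 11.47, at least 56.4-fold higher. COLEC12, a scavenger receptor, stood at 5.82, 6.19 and 5.62 against 12.67, a difference of 6.79, and the phospholipid-binding ANXA1 was at least 54.0-fold higher. HAS2, which makes hyaluronan, stood at 6.43, 5.43 and 6.25 against 12.09, although the SD between its 2 probes was 1.75. GAD1, which makes the transmitter GABA, was at least 38.2-fold higher, the cystatin CST1 at least 18.7-fold, the aminopeptidase ENPEP at least 25.6-fold and the membrane protein MYOF at least 21.4-fold. The stress cytokine GDF15 stood at 5.53, 4.77 and 6.08 against 10.78. On the lower side, CAMKV, a kinase-like protein of neurons, stood at 10.75, 10.81 and 10.87 against an undetected 4.67, at least 36.4-fold lower. POLR3G, an RNA polymerase III subunit of stem cells, stood at 12, 11.5 and 12.03 against 7.89, the kinase PIM2 differed by -3.87, and CNMD was at least 20.1-fold lower. For LMO3 the brighter probe gave at least 23.3-fold lower, and the SD between its 2 probes was 2.89.

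Host transcripts of miR-124, a microRNA of neurons, were among the lowest. MIR124-2HG stood at 9.40, 9.24 and 9.41 against an undetected 4.88, at least 13.3-fold lower, and MIR124-1HG at 9.38, 8.35 and 9.01 against an undetected 5.16, at least 9.76-fold lower. MIR9-1HG, a host of the neural microRNA miR-9, chosen after its value was seen, stood at 5.48, 5.70 and 5.98 against 9.52, a difference of 3.81 in the opposite direction. The mature microRNAs were not measured.

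In 11 genes a difference of at least 2-fold was no larger than the range of the pluripotent arrays, 6 of them higher and 5 lower, and these were not called. The probe of 18S ribosomal RNA (RNA18SN5) stood at 7.69 on E8 and 7.86 on Y27632, but at 10.51 on Nam and 10.40 on Mesoderm, so Nam and Mesoderm were alike and apart from the other 2 arrays, and the part of this difference in other results was not tested. NUP43, of the nuclear pore, stood at 8.56, 6.65 and 8.59 against 6.46, and GINS4, of the replicative helicase, at 8.63, 6.76 and 7.52 against 6.01, with Nam again nearest to Mesoderm. Placental growth factor PGF showed another pattern, with 4.73, 4.66 and 6.34 against 6.54, in which Y27632 lay next to Mesoderm. FCF1, of ribosome assembly, passed the call by little, with a difference of -2.09 beside a range of 2.0, and lost it without E8 (-1.73) or without Y27632 (-1.82). In all, 241 compared genes had a range of at least 1 among the pluripotent arrays, 126 of them detected on all 4 arrays, and the part of treatment in that range was not tested here.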

How the data were processed

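Total RNA was labelled with biotin and hybridised to Illumina BeadChips, 1 array per culture. The authors deposited 2 values per array for 47296 probes, an intensity and a p-value of detection, per the file headers, and normalized values on a log2 scale whose method is not given in the sources used here. The log2 values of the authors' table served as an alternative.

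With limma 3.58.1 in R 4.3.3 (neqc), signals were background-corrected from the detection p-values (steps of 770 negative controls), given an offset of 16, quantile-normalized and log2-transformed. Folds of dim genes are understated by the offset. The platform annotation named 30105 probes by 1 symbol and 8 by several, and 17183 were unnamed. A gene was read from its brightest detected probe, and the pooled between-probe SD of the difference was 0.40. Tables were made with Python 3.11.15 and pandas 2.3.3. Columns of no sample numbered 0. Precision is limited by the number of arrays, and the calling step was tested on simulated data.

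The named genes are a set taken by rule, and not all of them are printed above. The set holds the 5 markers, the 25 highest and 25 lowest calls, 8 genes with the widest range and 8 with a difference inside it. From each list it holds up to 6 calls per direction and 2 genes nearest 0. Other list members are printed for their known roles, after their values were seen. Genes, lists and comparison were chosen with earlier results of these data known. Of 730 listed genes 38 had no probe in the annotation used.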

Additional observations from a re-analysis of the deposited data

How the results depend on the processing

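No called named gene changed sign under 10 alternatives, and no gene called in the comparison was called in the other direction under the 13 alternatives for counts. Alternatives that change only the detection filter, the threshold, the use of the range or the fit keep the same differences. They could not reverse a direction, so only the other alternatives bear on it. Against 1199 higher and 1126 lower genes, counts were 571 and 448 without background correction, 848 and 779 with an offset of 50, 648 and 754 with detection required on all 4 arrays, 388 and 267 at 4-fold, and 2135 and 2233 in limma's moderated fit at an adjusted p of 0.05, which takes the 3 treatments as replicates and assumes that Mesoderm varies like them. Leaving out E8, Nam or Y27632 gave 1199 to 1225 higher and 1117 to 1193 lower genes. The remaining alternatives stayed within 1.5 times. Background left in the signals compresses dim probes, and requiring detection everywhere removes genes absent on 1 side. Of 190 named calls, 104 were lost with detection required on all 4 arrays, 48 without background correction, 20 at the offset of 50, 8 in the authors' values, 3 with median scaling and 4 to 6 when an array was left out. The difference moved by at least the pooled between-probe SD of 0.40 for 153 of the 190 without background correction, for 117 at the offset of 50 and for 50 in the authors' values. FCF1, GDF3, SOX10, HBG2, CBX7, RYR2, FBLN5, ROR1, PKM and PSAT1 each lost the call without 1 pluripotent array. The between-probe SD exceeded 1 for 54 called genes, 8 of them named. A slide or scan block was not run, since the files used here give neither. No paired analysis was possible because each group has 1 array.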

Other observations

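Gene families chosen after their values were seen differed in how far they took part. All 6 compared metallothioneins, which bind zinc and copper, were lower in the Mesoderm culture, with a median difference of -2.50. MT1X stood at 10.73 on E8, 9.88 on Nam and 10.77 on Y27632 against 6.90, MT1G at 12.15, 11.69 and 12.33 against 9.02, and MT2A at 9.26, 8.74 and 9.25 against 7.52. Nam was the lowest of the pluripotent arrays for each of these 3 genes, and Mesoderm lay below it. Metallothionein genes are near-identical copies, so their probes may share transcripts. Of 10 receptors named TNFRSF 7 were higher and 0 lower (6 of the 10 entered through the Mesoderm array), with TNFRSF19 at 6.06, 5.45 and 5.70 against 8.96. Annexins were higher in 4 of 11, ADAMTS proteases in 5 of 10 with 1 lower, and protocadherins in 5 of 22. Of these, 2 annexins, 6 ADAMTS genes and 10 protocadherins entered through the Mesoderm array. The shares over all compared genes were 10.7% higher and 10.0% lower. Housekeeping families hardly moved: 0 of 39 NDUF subunits of respiratory complex I, 3 of 72 ribosomal protein genes and 2 of 32 proteasome subunits were called, the last being PSMB8 and PSMB10 of the immunoproteasome, both lower.

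Some genes best known from neurons were detected in the pluripotent cultures and lower in Mesoderm. They were picked after their values were seen, so their direction is a description of those named. CRMP1, of axon guidance, stood at 11.88, 12.04 and 12.02 against 8.82, KIF1A, a motor of synaptic vesicle precursors, at 12.40, 12.66 and 12.43 against 9.81, and TUBB3, the neuronal tubulin, at 11.69, 11.99 and 11.78 against 9.50. The synaptic vesicle gene SYT1 stood at 8.85, 8.41 and 8.73 against an undetected 5.15, at least 8.21-fold lower. NEFM, a neurofilament gene, differed by -0.91 and was not called, and SNAP25, not detected on the pluripotent arrays, stood at 6.12 on Mesoderm and was not called.

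Of 3752 probes with no gene name in the annotation used that met the same detection rule, 295 (7.86%) were higher and 246 (6.56%) lower. These are single probes, so the shares are not set against those of genes, and they were not analysed further.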
